A study of Mus musculus with 6 samples.

Results

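The nuclear genes of oxidative phosphorylation were followed in haematopoietic stem cells (HSCs) that do or do not carry the surface receptor CD93. They were taken by gene symbol: names starting with Nduf and a subunit letter with its number (complex I), Sdha to Sdhd (complex II), Uqcr (complex III), Cox4 to Cox8 (complex IV) and Atp5 (complex V), leaving out pseudogenes and assembly factors. The rule found 84 of the 47937 genes listed: 37 for complex I, 4 for complex II, 8 for complex III, 18 for complex IV and 17 for complex V. It used no measured value. The names do not follow biochemistry in every case: Ndufa4 is known as a subunit of complex IV, Cox7a2l as an assembly factor of respiratory supercomplexes, and Atp5s and Atp5sl are not core subunits of the ATP synthase. Ndufab1 and Cyc1, known as subunits of complexes I and III, are not taken by these names. They are counted below with the related lists.

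Polyadenylated RNA was sequenced from marrow HSCs of 8-week-old male C57BL/6 mice of wild-type genotype, after depletion of lineage-positive cells. The gate took cells with Kit, Sca-1 and Slam1 and without CD34, Flt3 and CD48, and then split them by CD93 into a positive (CD93pos) and a negative (CD93neg) fraction, with 3 libraries of each, and no other treatment or allele was given to either group. Marrow came from pooled femora and tibia. The labels state biological replicates without saying which animals gave which library, so p-values measure the spread between these libraries, which may in part be technical.

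Oxidative phosphorylation is carried out by protein complexes in the inner mitochondrial membrane. Complexes I and II pass electrons from NADH and succinate to ubiquinone, complex III passes them to cytochrome c, and complex IV to oxygen. Complexes I, III and IV pump protons, and complex V, the ATP synthase, uses the gradient to make ATP. Most subunits are encoded in the nucleus and a few in mitochondrial DNA, so the assembly of complexes I, III, IV and V needs both genomes, while complex II is wholly nuclear. Resting HSCs are known for a low rate of respiration and for their use of glycolysis, and respiration is known to increase as they leave quiescence.

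The libraries differed before any comparison. Reads assigned to genes ranged from 5794528 to 9509304 in CD93pos and from 2832653 to 4614396 in CD93neg. Of the 11805 genes tested, those with a mean normalized count (reads divided by the authors' size factor for the library) of at least 10, CD93neg replicate 1 had no read for 71%. For the CD93pos libraries that share was 2.1%, 13.5% and 5.04%, against 26.4% and 16% for the other CD93neg libraries. Of 8 HSC markers, all were read in 5 libraries, and Ly6a, Slamf1 and Procr had no read in CD93neg replicate 1. RNA of the genes excluded by the gate was also found. For Cd34 the positive fraction held 3216, 1603 and 2496 reads (replicates 1 to 3), and the negative fraction held 1715, 0 and 767. Cd48 had 640, 371 and 487 in the former, against 0, 146 and 67 in the latter. Flt3 had 236, 0 and 195, against 0, 172 and 13. Whether these reads came from cells outside the gate was not tested. Reads of Cd93 itself numbered 906, 1001 and 550 in the positive fraction, against 0, 419 and 38 in the negative fraction. In CPM (reads per 1000000 assigned) Cd93 stood at 95.3, 172.7 and 76.9 in CD93pos and at 0, 90.8 and 12.7 in CD93neg. CD93neg replicate 2 thus lay above CD93pos replicate 3, so the groups overlapped in Cd93 RNA. Neutrophil markers (12 genes) summed to 12991 and 9276 CPM in CD93neg replicates 2 and 3, to 0 in CD93neg replicate 1 and to 3.11 to 284 in CD93pos. B lineage markers (10 genes) summed to 11211 and 34017 CPM in CD93neg replicates 2 and 3, to 0.353 in CD93neg replicate 1 and to 73.0 to 97.6 in CD93pos. The labels give male mice, yet Xist had 2419 and 1143 reads in CD93neg replicates 2 and 3, 12 in CD93pos replicate 3 and 0 in the other 3 libraries. Reads of the Y-linked gene Ddx3y numbered 855, 328 and 243 in the CD93pos libraries and 0 in all 3 CD93neg libraries. The part of these differences in the values that follow was not tested, and in bulk RNA fewer cells of a type and less RNA per cell cannot be told apart.

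Together the oxidative phosphorylation genes took 13063, 11475 and 14972 CPM in the CD93pos libraries (replicates 1 to 3, as in all lists below) and 6298, 12392 and 10908 in the CD93neg libraries. Means were 13170 ± 1751 and 9866 ± 3178 CPM (SD over 3 libraries each), and their ratio was 1.33. CD93neg replicate 1 was the lowest of the 6 libraries, and CD93neg replicate 2 lay above CD93pos replicate 2, so the groups overlapped. Without CD93neg replicate 1 the ratio was 1.13. Complex V and complex I took the most in every library, and complex II, III and IV took less. By complex, the ratio of the group means was 1.30 for I, 1.17 for II, 1.70 for III, 1.11 for IV and 1.40 for V. Without CD93neg replicate 1 those ratios were 1.08, 1.13, 1.30, 0.84 and 1.27, so that complex IV changed sides. Complex III CPM was 1759, 1633 and 2161 in CD93pos and 418, 1635 and 1222 in CD93neg.

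**Figure D1:**
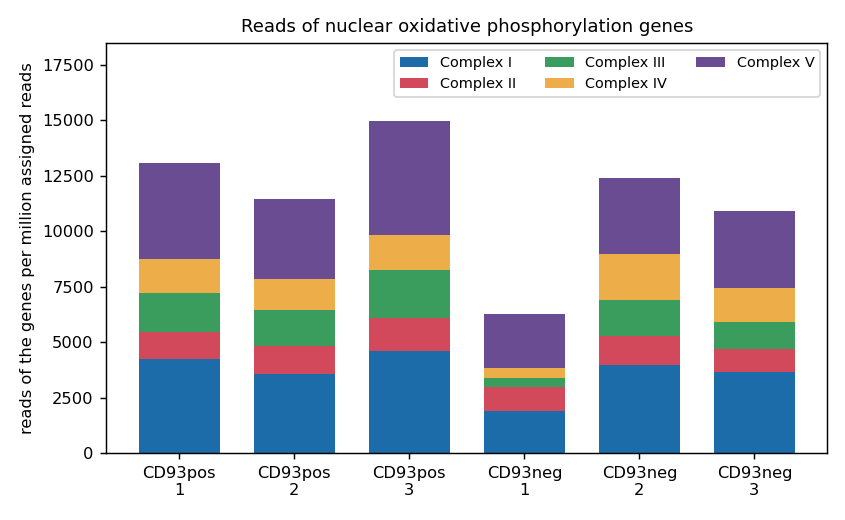
Reads of the 84 genes per 1000000 assigned reads in each library, stacked by complex (vertical axis in CPM). CD93neg replicate 1 stands lowest at 6298, and the other CD93neg libraries, at 12392 and 10908, lie among or near the CD93pos libraries at 11475 to 14972.

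Of the 84 genes, 78 passed the filter on low values and were tested, and their mean normalized counts ran from 27.1 for Ndufb4 to 4538 for Atp5b. The other 6 had a mean of at most 0.457 and are described with the isoforms. limma on log2(normalized count + 1) called none of the 78, with p adjusted over all 11805 genes, and it called 0% of all genes in either direction. The smallest adjusted p among the 78 was 0.461. At an unadjusted p under 0.05 limma had 0 of the 78 higher in CD93pos, against 11.8% of all genes tested, and 0 lower, against 0.381%. edgeR's quasi-likelihood test on recovered reads also called 0 of the 78, with 0 at an unadjusted p under 0.05 in either direction, against 9.04% of all genes higher and 1.51% lower. DESeq2 called 5.58% of 11813 genes higher and 0.389% lower, and none of the 77 members to which it gave an adjusted p. Of the genes with an adjusted p in the authors' deposited table, 5.97% were under 0.05, and 0 of the 77 members were. The smallest adjusted p of a member in the authors' deposited table was 0.99995, and the smallest unadjusted p was 0.42.

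On the limma scale the median log2 fold change (CD93pos over CD93neg) of the 78 genes was 2.50, beside 2.36 for all genes tested. It was positive for 61, or 78.2%, against 79.9% of all genes. The median by complex was 2.57 for I, 1.34 for II, 1.67 for III, 2.05 for IV and 2.13 for V. These medians rested on CD93neg replicate 1. Without that library the median of the 78 was -0.013, beside 0.43 for all genes, 39 were positive (60.1% of all genes were), and the complexes had medians of -0.067, -0.14, 0.12, -0.19 and 0.23. limma again called 0 of the 78 there, and 0.00847% of all genes, lower. Unadjusted p was under 0.05 for 5 members higher in CD93pos (6.41%, against 12.5% of all genes) and for 2 lower (2.56%, against 4.4%). With CD93neg replicate 1 as the only CD93neg library, limma called 49 members higher (background 58.2%) and 8 lower (8.61%). A fit with the replicate number as a block called 0 members, against 0.127% of all genes higher and 0.0762% lower. The median standard error of a member's fold change was 2.55 with all libraries and 0.43 without CD93neg replicate 1.

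**Figure D2:**
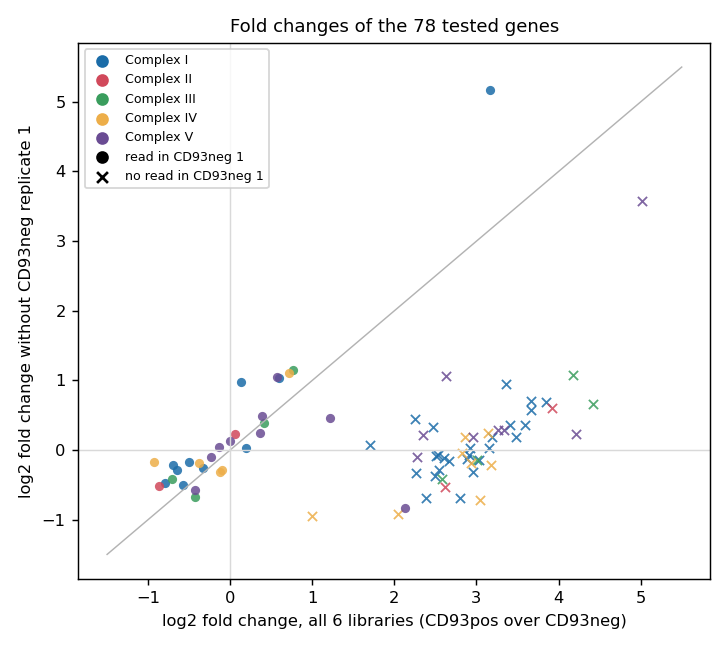
Each point is 1 of the 78 tested genes, with the limma log2 fold change over all 6 libraries on the horizontal axis and that without CD93neg replicate 1 on the vertical axis, in colours by complex. The 48 crosses, genes with no read in CD93neg replicate 1, all lie at positive values on the horizontal axis and most of them within 1 of 0 on the vertical axis, while the 30 dots cluster near the line of equal values apart from Ndufv1, with no read in CD93neg replicate 2, and Atp5j, with 1 read in CD93neg replicate 1.

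The groups did not overlap for 9 members. Normalized counts were higher in every CD93pos than in every CD93neg library for Ndufa9, Ndufa10, Ndufb9, Sdhb, Uqcrc1, Uqcrc2, Cox6b1 and Atp5h, which is 10.3% of the 78 against a background of 18.3% of all genes tested. They were lower in every CD93pos library for Ndufa13 alone, 1.28% against 1.92%. Both shares lay below the background. Of the 8, Atp5h was the only gene read in CD93neg replicate 1. Without that library 14 members did not overlap on the higher side (17.9%, against 21.8%) and 7 on the lower side (8.97%, against 13.8%). Those on the lower side were Ndufs7, Ndufa6, Ndufa13, Uqcrh, Cox4i1, Cox7b and Atp5j.

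Complex I takes electrons from NADH. Of its 36 tested genes 26 had no read in CD93neg replicate 1 and 1 had none in CD93neg replicate 2. Ndufv1 (chr19:4007384-4012806, minus strand, GRCm38), which binds NADH and its flavin, had normalized counts of 1006, 1056 and 989 in CD93pos and 1828, 0 and 792 in CD93neg. The 3 CD93pos libraries were close to each other, and CD93neg held both the highest and the lowest value. Its log2 fold change was 3.17 ± 2.77 (SE, limma adjusted p = 0.623), and the ratio of group means was 1.16. Ndufv2 (chr17:66078638-66101559, minus strand), an iron-sulfur subunit beside it, had 871, 1059 and 1087 in CD93pos and 1211, 391 and 614 in CD93neg. CD93neg replicate 1 was above and the other CD93neg libraries below all CD93pos libraries, so the direction differed within the group. Its fold change was 0.59 ± 0.85 (SE, limma adjusted p = 0.717), and 1.03 without CD93neg replicate 1 (limma adjusted p = 0.209), the smallest adjusted p of any member in that comparison.

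Ndufs1, the largest iron-sulfur subunit of complex I, had 763, 517 and 1084 in CD93pos and 0, 657 and 322 in CD93neg. CD93neg replicate 1 had no read, CD93neg replicate 2 lay within the CD93pos range and CD93neg replicate 3 below it. The log2 fold change of Ndufs1 was 3.66 ± 2.65 (SE), and 0.71 without CD93neg replicate 1. Ndufs7, a subunit of the ubiquinone site, had 922, 699 and 1016 in CD93pos and 0, 1675 and 1166 in CD93neg, with both CD93neg libraries that read it above every CD93pos library. Its fold change was 2.80 with all libraries and -0.69 without CD93neg replicate 1. Ndufs8, an iron-sulfur subunit, had 799, 604 and 786 and 0, 695 and 1168, and its fold change of 2.96 became -0.31.

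Among the accessory subunits of complex I, which surround the catalytic core, Ndufa10 had the smallest unadjusted p. Its normalized counts were 949.9, 1075 and 1425 in CD93pos and 0, 525 and 936 in CD93neg, a fold change of 3.84 ± 2.65 (SE, limma adjusted p = 0.578). Every CD93neg library lay below every CD93pos library. Ndufa9 had 952, 999 and 1259 in CD93pos and 0, 853 and 803 in CD93neg, and Ndufb9 had 609.8, 682 and 905 and 0, 546 and 577, each again without overlap. Without CD93neg replicate 1 the fold changes of Ndufa10, Ndufa9 and Ndufb9 were 0.69, 0.36 and 0.36. Ndufa13, also known for a role in cell death signalling, ran the other way: 564, 521 and 449 in CD93pos and 1383, 666 and 750.2 in CD93neg. Every CD93neg library was above every CD93pos library, and the fold change was -0.80 ± 0.93 (SE, limma adjusted p = 0.666). Ndufb10 had 697, 593 and 780.3 in CD93pos and 1534, 806 and 739 in CD93neg, highest in CD93neg replicate 1, while CD93neg replicate 3 lay within the CD93pos range. Ndufb8, with the highest normalized count per kilobase of transcript among complex I genes, had 999, 1097 and 1116 and 0, 811 and 1088, so it was absent from the reads of CD93neg replicate 1 and near the CD93pos level in CD93neg replicate 3.

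Complex II oxidizes succinate and is shared with the tricarboxylic acid cycle. Sdha, the flavin-bearing subunit (chr13:74322254-74350280, minus strand), had normalized counts of 2433, 3714 and 3702 in CD93pos and 3914, 2515 and 2982 in CD93neg. The highest and the second lowest of these values belong to CD93neg replicates 1 and 2, and the groups overlapped throughout. The means were 3283 ± 736 and 3137 ± 712 (SD, n = 3), and the log2 fold change was 0.063 ± 0.30 (SE, limma adjusted p = 0.914). Sdhb, the iron-sulfur subunit (chr4:140961203-140979193, plus strand), had 1455, 1261 and 1800.0 in CD93pos and 0, 1116 and 864 in CD93neg. Every CD93neg library was below every CD93pos library. Its fold change was 3.91 ± 2.66 (SE, limma adjusted p = 0.571), and 0.60 without CD93neg replicate 1. The membrane anchors Sdhc and Sdhd differed from each other. Sdhc had 675, 205 and 817 in CD93pos and 0, 719 and 679.9 in CD93neg, with CD93pos replicate 2 well below replicates 1 and 3. Sdhd had 755, 626 and 297 and 1529, 1400.4 and 397, and was highest in CD93neg replicates 1 and 2. The fold change was 2.62 for Sdhc and -0.86 for Sdhd, and without CD93neg replicate 1 it was -0.53 and -0.52.

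Complex III carries electrons from ubiquinol to cytochrome c. Its core proteins had the smallest unadjusted p values of the complex. Uqcrc1 (chr9:108936633-108949623, plus strand) had 3626, 3924 and 4246 in CD93pos and 0, 3124 and 1968 in CD93neg, and Uqcrc2 (chr7:120635176-120659524, plus strand) had 998, 1383 and 1672 and 0, 448 and 866. For both genes every CD93neg library was below every CD93pos library. The log2 fold change of Uqcrc1 was 4.42 ± 2.76 (SE, limma adjusted p = 0.54), and 0.66 ± 0.24 without CD93neg replicate 1 (limma adjusted p = 0.256). That of Uqcrc2 was 4.18 ± 2.61 (SE, limma adjusted p = 0.54), and 1.08 ± 0.41 without it (limma adjusted p = 0.275). Uqcrfs1, the Rieske iron-sulfur protein, had 853, 208 and 1412 in CD93pos and 0, 537 and 909.6 in CD93neg. Of Uqcrc1, Uqcrc2 and Uqcrfs1 it varied most within CD93pos, where replicate 2 was lower than CD93neg replicates 2 and 3. Uqcrh, the hinge protein that helps to dock cytochrome c, had 645, 610.1 and 620.3 in CD93pos and 597, 1143 and 879.9 in CD93neg. Its CD93pos values were the tightest of all 78 genes, with a coefficient of variation of 0.0291, and CD93neg replicates 2 and 3 lay above them. The fold change of Uqcrh was -0.43 and -0.68 without CD93neg replicate 1 (limma adjusted p = 0.31). Uqcr10, a small subunit, had 441, 332 and 355 in CD93pos and 913, 604 and 414 in CD93neg, with a fold change of -0.71.

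Complex IV reduces oxygen, and its nuclear subunits surround a core encoded in mitochondrial DNA. Cox4i1 (chr8:120668222-120674207, plus strand), the largest nuclear subunit, had 1481, 1659 and 1414 in CD93pos and 0, 3107 and 2015 in CD93neg. CD93neg replicate 1 had no read, and the other CD93neg libraries lay above every CD93pos library. The CD93pos mean was 1518 ± 127 and the CD93neg mean 1707 ± 1576 (SD, n = 3), a ratio of 0.889, while the fold change on the log2 scale was 3.04 ± 2.86 (SE, limma adjusted p = 0.625). Ratio and log2 fold change thus had opposite directions for this gene, and without CD93neg replicate 1 the log2 fold change was -0.72 (limma adjusted p = 0.244). Cox5a (chr9:57521274-57532426, plus strand), a regulatory subunit, had 686, 646 and 748 in CD93pos and 721, 223 and 464 in CD93neg. CD93neg replicate 1 lay within the CD93pos range and the other CD93neg libraries below it. The fold change of Cox5a was 0.72, and 1.10 without CD93neg replicate 1. Cox5b, which sits on the matrix side, had 398, 249 and 442 in CD93pos and 292, 437 and 425 in CD93neg, so the groups overlapped, with a fold change of -0.10. Cox7b had 314, 158 and 323 in CD93pos and 0, 571 and 403 in CD93neg. Of the 78 genes it had the lowest ratio of the CD93pos mean to the mean of CD93neg replicates 2 and 3, 0.544. Cox7a2l, the supercomplex factor, had 817, 1017 and 1177 in CD93pos and 0, 919 and 1435 in CD93neg, with a fold change of 3.18 that became -0.21 without CD93neg replicate 1.

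Complex V couples the proton gradient to ATP synthesis. Atp5b, the catalytic beta subunit (chr10:128083273-128090391, plus strand), was the highest of all 78 genes, with normalized counts of 5042, 4059 and 6301 in CD93pos and 6635, 1713 and 3478 in CD93neg. CD93neg replicate 1 had the highest value of the 6 libraries, and CD93neg replicates 2 and 3 the lowest. The means were 5134 ± 1124 and 3942 ± 2494 (SD, n = 3), and the log2 fold change was 0.57 ± 0.45 (SE, limma adjusted p = 0.611). Without CD93neg replicate 1 it was 1.05 ± 0.36 (limma adjusted p = 0.232). Atp5a1, the alpha subunit that alternates with beta in the catalytic head, had 4528, 3772 and 5701 in CD93pos and 0, 4219 and 3629 in CD93neg. It had no read in the CD93neg library where Atp5b was highest, and CD93neg replicate 2 lay within the CD93pos range. Its fold change was 4.21 ± 2.88 (SE, limma adjusted p = 0.573), and 0.23 without that library.

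Atp5c1, the gamma subunit of the rotor, had 1756, 1987 and 2161 in CD93pos and 2768, 1865 and 1958 in CD93neg, an even level apart from a high CD93neg replicate 1. Its fold change was -0.14 ± 0.37 (SE). Atp5e, the epsilon subunit of the rotor, had 277, 169 and 207 in CD93pos and 236, 464 and 217 in CD93neg, with overlap. The fold change of Atp5e was -0.43 ± 1.56 (SE, limma adjusted p = 0.886), and -0.57 without CD93neg replicate 1. Atp5h, of the stalk that holds the head, had 529.8, 594 and 592 in CD93pos and 501, 382 and 433 in CD93neg. Reads were found in all libraries and its groups did not overlap, with a fold change of 0.39 ± 1.10 (SE, limma adjusted p = 0.854) and 0.49 without CD93neg replicate 1. Atp5j, another stalk subunit, had a single read in CD93neg replicate 1, and normalized counts of 819.7, 566 and 940.3 in CD93pos and 1.82, 1448 and 1271 in CD93neg. The CD93neg libraries with more than 1 read were above all CD93pos libraries, and the fold change of 2.13 became -0.84 without CD93neg replicate 1. Atp5sl had the largest fold change of the 78 genes, 5.01 ± 2.55 (SE, limma adjusted p = 0.461), from 180.1, 224 and 325 in CD93pos and 0, 0 and 394 in CD93neg. CD93neg replicate 3 was above all CD93pos libraries and the other CD93neg libraries had no read, so the ratio of group means was 1.85. Atp5s had 48.0, 45.2 and 69.5 in CD93pos and 0, 11.4 and 53.1 in CD93neg.

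Partner subunits that sit side by side in a complex can be compared per kilobase of transcript. Atp5a1 over Atp5b was 0.696, 0.720 and 0.702 in CD93pos, and 0, 1.91 and 0.809 in CD93neg. The 3 CD93pos libraries gave nearly the same ratio and each CD93neg library gave another. Uqcrc1 over Uqcrc2 was 4.17, 3.25 and 2.91 in CD93pos, and 8.00 and 2.61 in CD93neg replicates 2 and 3, with neither gene read in CD93neg replicate 1. Ndufv1 over Ndufv2 was 1.18, 1.02 and 0.929 in CD93pos, and 1.54, 0 and 1.32 in CD93neg. Sdha over Sdhb was 0.659, 1.16 and 0.810 in CD93pos, and 0.888 and 1.36 in CD93neg replicates 2 and 3, while in CD93neg replicate 1 Sdha was read and Sdhb was not. Ndufs7 over Ndufs8, neighbours on the path to ubiquinone, was 1.5, 1.5 and 1.68 in CD93pos and 3.13 and 1.30 in CD93neg replicates 2 and 3, again with neither read in CD93neg replicate 1. Cox5a over Cox5b was 2.31, 3.48 and 2.27 in CD93pos and 3.31, 0.684 and 1.46 in CD93neg. In each of these 6 pairs the CD93neg libraries spanned a wider range of ratios than the CD93pos libraries, or had a partner without a read.

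**Figure D3:**
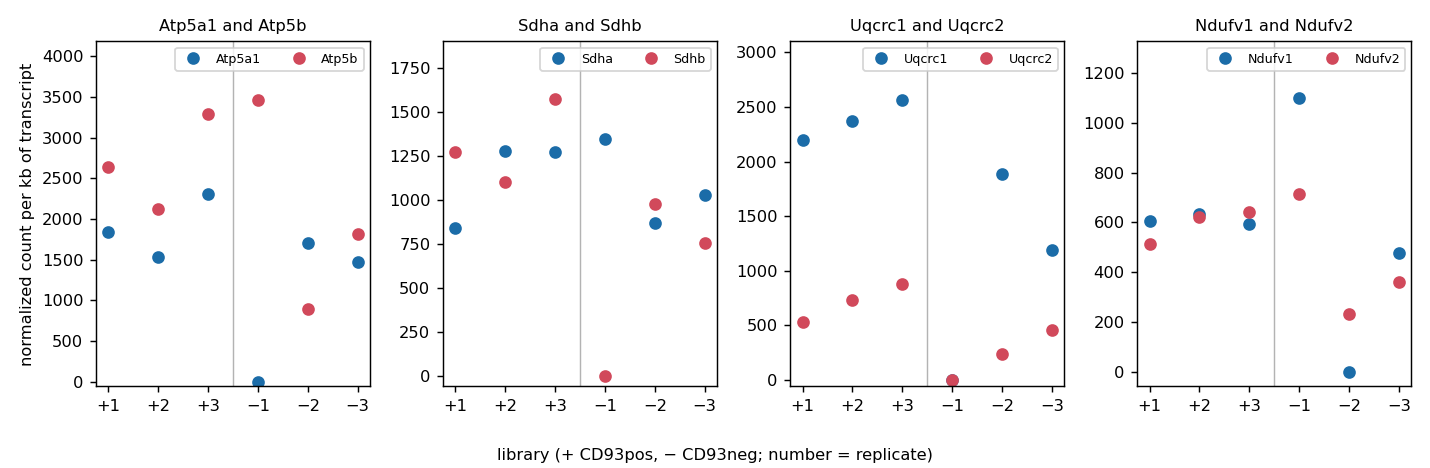
Normalized count per kilobase of transcript (vertical axis) of 4 pairs of partner subunits in the 6 libraries (horizontal axis, + for CD93pos and − for CD93neg, with the replicate number). In CD93neg replicate 1 Atp5b, Sdha and both Ndufv genes were read while Atp5a1, Sdhb and both Uqcrc genes stood at 0, and in CD93neg replicate 2 Ndufv1 stood at 0.

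Several subunits of complexes IV and V come as isoforms from separate genes, some of which are known for use in heart, muscle, lung or testis. Cox6a2, Cox8b and Cox8c had no read in any library, and neither had Ndufa4l2. Over the group, 0 reads allow up to 0.134 CPM in CD93pos and 0.287 CPM in CD93neg (a floor of 3 reads, counting error only). Cox7a1, the heart and muscle form, had 2 reads, both in CD93pos replicate 3, and Cox7b2 had 6, all in CD93pos replicate 1. Their widely used partners Cox6a1, Cox8a, Ndufa4, Cox7a2 and Cox7b each had between 158 and 761 normalized counts in every CD93pos library. Cox6a1 had 761, 516 and 753 in CD93pos and 555, 1130.2 and 609.5 in CD93neg, and Cox7a2 had 329, 228 and 259.7 and 459, 349 and 270.4, both read in all 6 libraries. Cox8a, at 653, 499 and 573 in CD93pos and 0, 811 and 520.5 in CD93neg, had no read in CD93neg replicate 1, so no form of subunit 8 was read there.

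In 2 families a minor form was present. Cox4i2, known from lung and from oxygen-sensing cells, made up 0.75%, 4.89% and 1.84% of the summed Cox4i1 and Cox4i2 level per kilobase in CD93pos, and 2.89% and 1.80% in CD93neg replicates 2 and 3. The shares overlapped. Cox6b2, known as the testis form of subunit 6b, made up 15.9%, 14.7% and 24.8% of the Cox6b1 and Cox6b2 level in CD93pos and 100%, 27.3% and 18.7% in CD93neg. Cox6b1 had no read in CD93neg replicate 1, where Cox6b2 was at its highest, with 245 reads or 445 normalized counts, against 55.5 to 126 in the other libraries. Cox6b1 had 557, 429 and 509 in CD93pos and 0, 424 and 414 in CD93neg, with no overlap and a fold change of 3.14 ± 2.67 (SE, limma adjusted p = 0.623). Cox6b2 had a fold change of -0.92 ± 1.87 (SE, limma adjusted p = 0.798), and -0.17 without CD93neg replicate 1. The c-ring of the ATP synthase is made from Atp5g1, Atp5g2 and Atp5g3, which encode the same mature protein with different leader peptides. In CD93pos they took 46.3%, 8.07% and 45.6% of their summed level per kilobase on average. Atp5g1 took 47.6%, 47.8% and 43.4% in the 3 CD93pos libraries, 56.7% in CD93neg replicate 2 and 33.7% in CD93neg replicate 3. In CD93neg replicate 1 only Atp5g2 was read, with 60 reads.

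**Figure D4:**
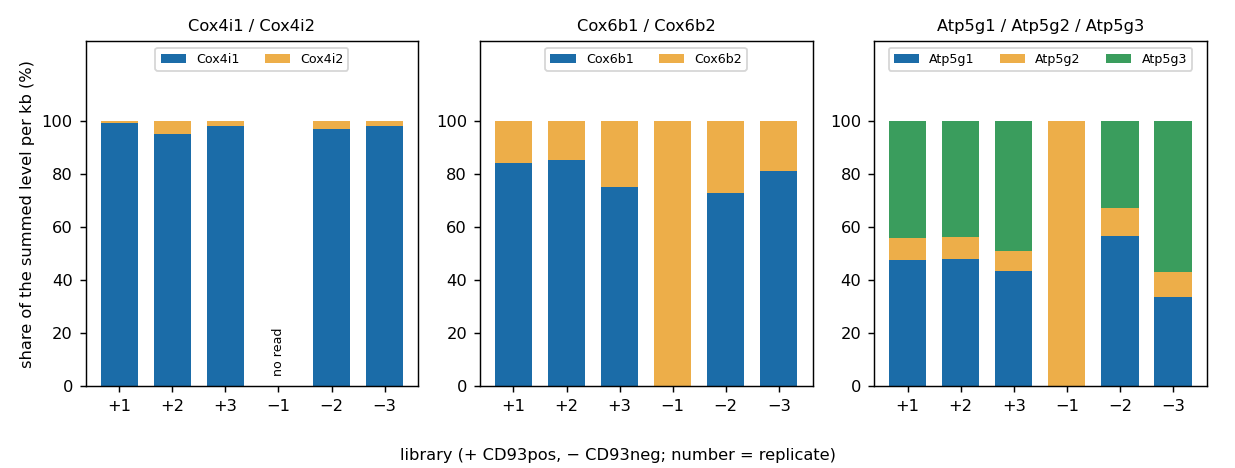
Share of each isoform in the summed level per kilobase of its family (vertical axis, percent) in the 6 libraries (horizontal axis, + for CD93pos and − for CD93neg). Cox4i1 and Cox6b1 made up most of their families wherever they were read, and of these 3 families (Cox4, Cox6b and Atp5g) CD93neg replicate 1 had reads of Cox6b2 and Atp5g2 alone.

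Promoter sequences are shown for isoform partners that differed in use, and for Cox6a1 and Sdhb, which hold several of the motifs searched. RefSeq promoters (GRCm38.p6) were matched for 69 of the 84 genes by gene ID, or else by symbol or synonym. Each line gives the 250 bases before the RefSeq start, 5′ to 3′ on the gene's strand, with motif matches on either strand in capitals. The motifs were GCATGCGC (NRF1 core), CCGGAAG (ETS family, GABP), AAGATGGC (YY1), GGGCGG (GC box) and TATAAA. The regions were chr5:115348959-115349208 (minus strand) for Cox6a1, chr4:140961021-140961270 (plus) for Sdhb, chr7:30626115-30626364 (minus) for Cox6b1, chr7:4753095-4753344 (minus) for Cox6b2, chr9:79759854-79760103 (minus) for Cox7a2 and chr7:30183921-30184170 (plus) for Cox7a1.
Cox6a1: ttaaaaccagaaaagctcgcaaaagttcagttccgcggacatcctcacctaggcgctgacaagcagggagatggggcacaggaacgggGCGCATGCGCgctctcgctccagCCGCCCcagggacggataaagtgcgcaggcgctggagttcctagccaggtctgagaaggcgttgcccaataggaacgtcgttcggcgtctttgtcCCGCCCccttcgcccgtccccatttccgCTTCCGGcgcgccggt
Sdhb: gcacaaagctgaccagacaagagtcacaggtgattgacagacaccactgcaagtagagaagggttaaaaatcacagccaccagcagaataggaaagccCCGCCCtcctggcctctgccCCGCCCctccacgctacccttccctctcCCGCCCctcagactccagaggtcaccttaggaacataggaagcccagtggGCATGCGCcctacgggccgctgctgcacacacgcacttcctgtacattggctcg
Cox6b1: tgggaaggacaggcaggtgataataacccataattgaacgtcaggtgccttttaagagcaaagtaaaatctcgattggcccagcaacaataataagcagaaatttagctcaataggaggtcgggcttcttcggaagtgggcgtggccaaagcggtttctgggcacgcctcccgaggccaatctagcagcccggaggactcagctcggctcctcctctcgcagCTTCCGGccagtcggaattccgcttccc
Cox6b2: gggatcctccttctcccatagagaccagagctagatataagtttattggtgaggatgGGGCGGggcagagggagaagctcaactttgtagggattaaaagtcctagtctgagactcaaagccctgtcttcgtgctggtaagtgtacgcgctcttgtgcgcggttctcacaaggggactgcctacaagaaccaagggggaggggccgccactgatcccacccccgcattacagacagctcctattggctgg
Cox7a2: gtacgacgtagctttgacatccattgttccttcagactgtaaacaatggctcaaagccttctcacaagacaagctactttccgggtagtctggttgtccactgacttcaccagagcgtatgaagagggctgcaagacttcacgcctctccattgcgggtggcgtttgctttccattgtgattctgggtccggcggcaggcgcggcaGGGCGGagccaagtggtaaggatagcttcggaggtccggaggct
Cox7a1: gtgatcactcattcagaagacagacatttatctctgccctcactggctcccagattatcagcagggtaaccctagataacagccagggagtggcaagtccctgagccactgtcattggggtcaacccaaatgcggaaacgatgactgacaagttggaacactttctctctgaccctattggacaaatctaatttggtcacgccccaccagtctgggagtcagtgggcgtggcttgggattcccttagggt

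In the whole window of 250 bases before to 50 after the start, the NRF1 core was in 10 of the 69 members (14.5%), in 6.33% of 9057 tested genes and in 3.05% of all 27025 genes with an entry. The YY1 letters were in 11 (15.9%), against 5.68% and 3.19%, of which 7 were complex I genes and 4 complex V genes. The ETS letters were in 16 (23.2%), against 21.6% and 9.93%. GC boxes were in 28 (40.6%), against 68.8% and 38.2%, and TATAAA in 7 (10.1%), against 8.51% and 15.7%. The 69 include members that were not tested. Among the 66 tested members the shares, to be set beside those of tested genes, were 15.2% for the NRF1 core and 16.7% for YY1. They were 24.2% for ETS, 40.9% for GC boxes and 7.58% for TATAAA, the last below the 8.51% of tested genes. Of the printed sequences Cox6a1 has the NRF1 core on both strands, overlapping, GC boxes and an ETS match, and Sdhb has an NRF1 core and GC boxes. Cox6b1 has an ETS match, Cox6b2 and Cox7a2 a GC box each, and Cox7a1 none of these letters. Members unread in CD93neg replicate 1 held the NRF1 core in 7 of 37 promoters and those read there in 3 of 29. A match is a description of letters only.

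In CD93neg replicate 1 members differed in whether they were read at all. Of the 78, 30 had reads there: Atp5j had 1, and the other 29 had between 60 and 3655. The remaining 48 (61.5%, against 71% of all genes tested) had none. A gene unread in this library alone of the 6 was found for 47 members (60.3%, against 38%). The unread genes were not the low ones, with a median CD93pos mean normalized count of 486, beside 535 for those read. Of the 20 members highest in CD93pos, 12 had no read in CD93neg replicate 1. Of the 29 genes with more than 1 read, 18 lay above the highest CD93pos library, 6 within the CD93pos range and 5 below, and the median ratio to the CD93pos mean was 1.29, from 0.149 for Atp5f1 to 5.12 for Cox6b2. All 48 unread genes had a positive fold change (median 2.92), and the 30 read ones had 13 positive and 17 negative (median -0.11). In CD93neg replicate 2 the members without a read were Ndufv1 and Atp5sl (2.56%, against 26.4%), and in the other 4 libraries all 78 were read. 29 members (37.2%, against 22.9%) were read in all 6.

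**Figure D5:**
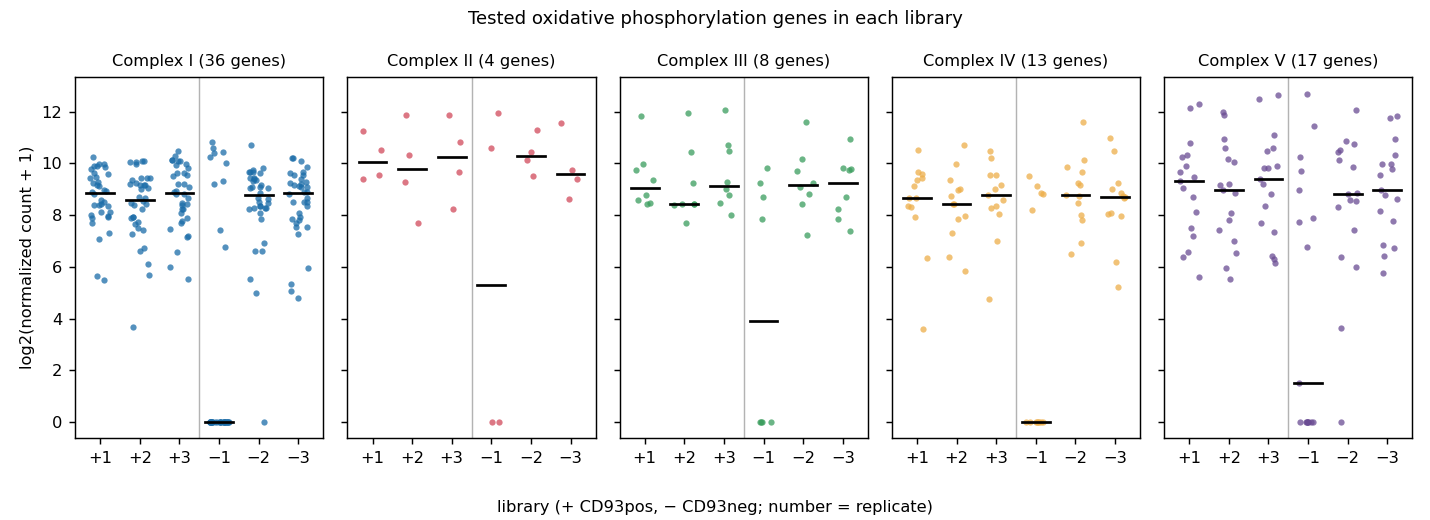
Each point is a tested gene in 1 library, with log2(normalized count + 1) on the vertical axis, a panel for each complex, and the median as a bar (+ for CD93pos, − for CD93neg, with the replicate number). In CD93neg replicate 1 every complex has genes at 0 and genes with reads, Atp5j of complex V stands at a single read, and the medians of complexes I and IV are at 0.

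The coefficient of variation within CD93pos had a median of 0.184 over the 78 genes, from 0.0291 for Uqcrh to 0.953 for Cox4i2, beside 0.433 over all genes tested, which include genes with fewer reads. The ratio of the CD93pos mean to the mean of CD93neg replicates 2 and 3 had a median of 0.956, with 38 genes above 1 and 40 below. It ran from 0.544 for Cox7b to 2.57 for Ndufv1. Within 1.5-fold lay 71.8% of members, against 36.1% of the 10853 tested genes with a read in CD93neg replicate 2 or 3, where the median ratio was 0.959. These shares are not matched for level, since all genes tested include genes with fewer reads. In CD93neg replicate 2, 26.4% of all genes tested were unread, against 2.56% of members. Across the 78 genes, which are not replicates and share a library's depth, Spearman's rho of normalized counts was 0.895 to 0.965 between CD93pos libraries. It was 0.727 to 0.965 over the 10 pairs without CD93neg replicate 1 and 0.110 to 0.224 over the pairs with it. CD93neg replicates 2 and 3, which the ratio above averages, had a rho of 0.746 and differed from each other for single genes, among them Sdhd, at 1400.4 and 397, and Atp5g3, at 316 and 1011. Per kilobase in CD93pos, Atp5b (2680), Uqcrc1 (2379), Cox4i1 (2038), Atp5a1 (1889) and Atp5c1 (1688) were the highest, and Ndufb4 (36.3), Atp5s (36.5) and Cox4i2 (55.0) the lowest of those tested.

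Genes that build, feed or control the complexes, and the subunits encoded in mitochondrial DNA, were taken from lists with 114 tested genes. limma called 0 of the 114. Unadjusted p was under 0.05 for 10 on the higher side (8.77%, against 11.8% of all genes) and for 0 on the lower side (against 0.381%). Without CD93neg replicate 1 these numbers were 11 (9.65%, against 12.5%) and 9 (7.89%, against 4.4%), and limma again called 0. edgeR called 0, with 4 higher at that p (3.51%, against 9.04%) and 0 lower (against 1.51%). DESeq2 called 3, Ecsit, Pprc1 and Esrra, all higher in CD93pos, of the 111 to which it gave an adjusted p, which is 2.7% against 5.58% of all genes. The shares on the higher side were thus below those of all genes. For the assembly factors of complex I, listed together with the subunit Ndufab1, the median fold change was 3.15 over 14 tested genes. It was 0.79 without CD93neg replicate 1. With all libraries 1 gene was higher at an unadjusted limma p under 0.05. That gene was Ecsit, which helps to assemble complex I, whose reads numbered 939, 170 and 691 in the CD93pos libraries and 0 in all CD93neg libraries (limma adjusted p = 0.0558). The assembly factors of complex II had a median of 1.69 over 4 (-0.07 without CD93neg replicate 1). Those of complex III, listed with cytochrome c and the subunit Cyc1, had 1.70 over 8 (0.19), and those of complex IV 2.17 over 23 (0.27). All of these stand beside 2.36 for all genes, or 0.43 without CD93neg replicate 1. For complex V assembly, its inhibitor and carriers the median was 2.12 over 11 (0.21). Slc25a5, the carrier that exchanges ADP for ATP, had normalized counts of 6062, 5538 and 6976 in CD93pos and 1801, 2876 and 3684 in CD93neg. Every CD93pos library was above every CD93neg library, and the log2 fold change was 1.21 ± 0.28 (SE, limma adjusted p = 0.0734), and 0.92 without CD93neg replicate 1 (limma adjusted p = 0.109).

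The 13 genes of ubiquinone synthesis had a median of 3.78 (2.28 without CD93neg replicate 1), with 3 higher at an unadjusted p under 0.05 (11.8% of all genes were) and 0 lower. Without that library 1 was higher (12.5% of all genes) and 2 were lower (4.4%). Coq10b, a ubiquinone-binding protein, was read 107, 71 and 222 times in the CD93pos libraries and 0, 0 and 8 times in the CD93neg libraries (limma adjusted p = 0.195). The 18 genes of the tricarboxylic acid cycle had a median of 3.62 (0.67), and 8 of them did not overlap on the higher side, against the 18.3% of all genes. Mdh2, malate dehydrogenase of the mitochondrion, had normalized counts of 3259, 4473 and 4273 in CD93pos and 2242, 2124 and 2699 in CD93neg. Its groups did not overlap, with a fold change of 0.76 ± 0.26 (SE, limma adjusted p = 0.254) and 0.73 without CD93neg replicate 1. The 16 tested regulators of mitochondrial genes had a median of 1.88 (0.98), with 4 higher at an unadjusted p under 0.05, beside the same 11.8% of all genes, and 3 without that library, beside 12.5%. Pprc1, a coactivator of respiratory genes, was read 858, 132 and 331 times in the CD93pos libraries and 3, 0 and 0 times in the CD93neg libraries (limma adjusted p = 0.0658). Esrra, a nuclear receptor that acts on them, was read 54, 117 and 103 times in the CD93pos libraries and in none of the CD93neg libraries (limma adjusted p = 0.0679). Without CD93neg replicate 1 the adjusted p was 0.109 for Ecsit and Pprc1 and 0.122 for Esrra.

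The reads of the 84 nuclear genes over those of the subunits encoded in mitochondrial DNA were 1.92, 1.18 and 1.94 in CD93pos and 1.34, 0.846 and 0.554 in CD93neg. CD93neg replicate 1 lay between CD93pos replicates 2 and 1, and CD93neg replicates 2 and 3, the libraries with the neutrophil and B lineage reads, were lowest. The mitochondrially encoded subunits took 6787, 9727 and 7731 CPM in the positive fraction, against 4714, 14651 and 19701 in the negative one, so their level differed more between those libraries than the nuclear sum given above. Of these 13 subunits 7 were tested, and the rest had a mean normalized count under 10. The median log2 fold change of the 7 was -0.076 (3 positive and 4 negative), and 0 of the 7 had an unadjusted p under 0.05 in limma. Without CD93neg replicate 1 the median was -1.26, and all 7 were negative, did not overlap (13.8% of all genes on that side) and had an unadjusted p under 0.05 (4.4%). limma called 0 of the 7 there, with a smallest adjusted p of 0.109. The part of those cells' reads in this ratio was not tested.

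Markers of the cell cycle and of other cell types differed between the libraries as well. The 10 markers of G2 and mitosis summed to 2074, 1763 and 1967 CPM in CD93pos and to 1572, 200.03 and 356 in CD93neg. All 10 were read in each CD93pos library, and 5, 3 and 5 in CD93neg. CD93neg replicate 2, with the fewest, had a summed oxidative phosphorylation level within the CD93pos range. Mast cell and basophil markers (7 genes) summed to 309 to 1119 CPM in CD93pos and to 0, 149 and 0 in CD93neg. Erythroid markers (7 genes, 6 or 7 of them read in each CD93pos library and 1, 3 and 4 in CD93neg) summed to 309 to 634 CPM in CD93pos and to 228, 11.5 and 80.9 in CD93neg. Macrophage markers (6 genes) summed to 283 to 459 CPM in CD93pos and to 0 in CD93neg replicate 1. In CD93neg replicates 2 and 3 they summed to 1115 and 3734, from 2 and 3 genes. Nearly all of those reads were of Lyz2, with 5067 and 10969. In CD93pos Lyz2 also held most of the macrophage marker reads, with 3055, 1452 and 2703. Adgre1, C1qa and C1qb had no read in any CD93neg library and were read in CD93pos replicates 1 and 3. Dendritic cell markers (6 genes) summed to 79.9 to 139.5 CPM in CD93pos and 283 to 322 in CD93neg, and those of T and NK cells (6 genes) to 203 to 416 and 32.9 to 247. Of the dendritic genes, 2 or 3 were read per CD93pos library and 2 to 4 per CD93neg library. Bst2 and Irf8 held most of those reads, while Itgax and Cd209a were unread throughout. Between 2 and 6 of the T and NK genes were read per CD93pos library, and 2 per CD93neg library. Nkg7 held most of their reads except in CD93neg replicate 3, where Klrb1c was higher (158 against 129). The part of these marker differences in the values of the set was not tested.

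Some reads may be shared between genes. Exons of 29 of the 84 members overlap another gene in GENCODE M21, 26 of them a gene on the opposite strand, and since the strand setting of the counting is not given in the sources used here, those reads cannot be told apart. Examples are Cox5a, which overlaps Gm26631, and Atp5f1, which overlaps Wdr77. The 4 pseudogenes with a member's name and -ps had at most 11 reads each over all 6 libraries.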

How the data were processed

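The libraries were put into the CD93pos or CD93neg group by their titles. STAR, featureCounts (Subread 1.5.0-p1) and DESeq2 1.26, and the builds GRCm38 and mm10, are named without roles in the submitters' processing notes. Which annotation and strand setting were used is not given in the sources used here. The authors deposited normalized signal, that is the count of each gene over a size factor for its library. A further deposited table has, for each gene, the mean signal, the log2 fold change with its error, the Wald score, the p-value and its adjusted form. In each library 1 read is worth a fixed step, which gave back whole reads for 100% of the values above 0 (tolerance 0.001). Assigned reads per library ran from 2832653 to 9509304, so 0 reads leave the highest limit in the shallowest library.

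Members were taken by symbol, and positions from GENCODE M21 (GRCm38), which holds all 84 IDs and 47310 of the 47937 listed. Groups were compared in R 4.3.3 by limma 3.58.1, using lmFit and a trended eBayes, on log2(normalized count + 1) of the 11805 genes with a mean of at least 10. It was two-sided, with Benjamini-Hochberg adjustment over all 11805 and 0.05 as the threshold. On this scale the change of a low gene is understated, and a library at 0 gives a large value. Alternatives were edgeR 4.0.16 and DESeq2 1.42.0 on recovered reads, the pseudocount, filter, scaling, replicate block and each library left out. Leaving out both CD93neg replicates 2 and 3 was added after seeing the data. Levels per kilobase used the shortest best-supported principal transcript. CPM are recovered reads per 1000000 assigned. Other steps ran in Python 3.11.15 (pandas 2.3.3, numpy 2.4.6, matplotlib 3.10.9).

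Named genes were, for each complex, the 2 members with the smallest p in each direction, the 2 highest per kilobase, members without overlap (up to 4 in each direction), the catalytic core and the isoform families. From each related list up to 2 members in each direction by p were named, and of these the ones with the smallest p are printed. The values of 1 named complex I gene are not reported here, though it is in all counts. Ndufa6, Atp5f1, Atp5j and the members at the ends of a range were named after their values were seen. The members and lists were chosen with earlier results of these data known. In simulated counts of the 11805 genes, 200 were changed. At a coefficient of variation of 0.3, limma found 9.5% of them at a log2 fold of 1, with 1 false call, and 100% at a log2 fold of 3, with 9. At a coefficient of 1.5 it found 0% at either size. Each simulated run used the same coefficient for all genes and libraries, and had no library like CD93neg replicate 1. These rates therefore need not hold in the present libraries. Same-numbered libraries did not deviate together (correlations of 0.037, 0.019 and 0.061), so the numbers were not taken to pair the samples.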

Additional observations from a re-analysis of the deposited data

How the results depend on the processing

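limma called 0 of the 78 genes under every setting run except 2. It called 1, Atp5sl (log2 fold change 7.89), without CD93neg replicate 3, and 57 without both CD93neg replicates 2 and 3, of which 49 were higher (58.2% of all genes were) and 8 lower (8.61%). There a lone CD93neg library is assumed to vary like the CD93pos libraries. The call of Atp5sl came after removal of the only CD93neg library that read it, at 394 normalized counts, above every CD93pos library. CD93neg replicates 1 and 2 were both at 0, so they showed no spread for this gene. The share of all genes called without CD93neg replicate 3 is not given, so this call is not a result about the members. With the replicate block limma called 0 of the 78 and 24 of all genes (15 higher and 9 lower), and the medians below were the same, since the block does not change a balanced estimate. The block changed no call of a member.

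The median log2 fold change was 1.42 with a pseudocount of 10, 0.54 with quantile normalization, 0.55 in edgeR and 0.39 in DESeq2. Leaving out each library moved it between -0.013 and 3.73. The range was -0.067 to 3.98 for complex I, -0.14 to 2.11 for complex II, 0.12 to 2.53 for complex III, -0.19 to 3.66 for complex IV and 0.23 to 3.32 for complex V. The lowest values all came without CD93neg replicate 1, where the medians of all members and of complexes I, II and IV turned negative. Without both CD93neg replicates 2 and 3 the medians were 7.81 for all members and 8.20, 4.32, 4.51, 7.98 and 5.76 for complexes I to V, and the ratio of summed CPM was 2.09. That ratio was 1.13 to 1.53 with each library left out.

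Genes without overlap on the higher side numbered 8, 13 under TMM scaling and 54 without both CD93neg replicates 2 and 3. On the lower side they numbered 1, and 18 without those 2 libraries. With each library left out the counts were 10 to 21 and 1 to 7. Smaller groups overlap less often by construction. Without CD93neg replicate 1 the shares of all genes were 21.8% and 13.8%. For TMM scaling and the other libraries left out no such share is given, so those counts are not a result about the members.

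Of 43 named members tested, 16 changed direction under some setting. In edgeR the log2 fold change was -0.0094 for Ndufs7, -0.084 for Cox4i1, -0.19 for Cox7b and -0.024 for Cox4i2, and 0.022 for Cox6a1, 0.12 for Cox5b and 0.10 for Atp5c1. DESeq2 gave -0.11 for Ndufs7, -0.17 for Cox4i1, -0.29 for Cox7b and -0.079 for Cox4i2. TMM scaling gave 0.11 for Cox6a1, 0.13 for Cox5b and 0.097 for Atp5c1. Quantile normalization gave -0.28 for Cox7b, -2.09 for Cox4i2, 0.25 for Atp5c1 and -0.76 for Atp5s. With each library left out the range crossed 0 for Ndufs7 (-0.69 to 4.67), Ndufa4 (-0.14 to 4.76), Ndufs8 (-0.31 to 4.78), Sdhc (-0.53 to 4.22), Uqcrfs1 (-0.15 to 4.77), Cox4i1 (-0.72 to 5.08), Cox8a (-0.18 to 4.65), Cox7a2l (-0.21 to 5.03), Cox7b (-0.92 to 3.66) and Cox4i2 (-0.95 to 2.30), each lowest without CD93neg replicate 1. It also did for Ndufv1 (-0.24 without CD93neg replicate 2 to 5.18 without CD93neg replicate 1), Sdha (-0.084 to 0.27), Cox6a1 (-0.32 to 0.19), Cox5b (-0.29 to 0.15) and Atp5c1 (-0.25 to 0.037). The cause was not tested. With a median standard error of 2.55, most members' fold changes were smaller than 2 standard errors.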
